A study of Mus musculus with 12 samples.

Results

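The genes described here encode the ligands and receptors of the tumour necrosis factor (TNF) superfamily, read in mouse renal cortex with and without injury. They were taken as the probe sets with exactly 1 gene symbol that starts with Tnfsf or Tnfrsf and a digit, or that is Tnf, Lta, Ltb, Ltbr, Fas, Fasl or Cd40. This gave 36 genes of 19938 measured, each read by 1 probe set, with 13 ligands and 23 receptors. The gene of TWEAK, Tnfsf12, shares its probe set with other symbols and was not analysed here.

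Expression was read on 12 Affymetrix arrays, 3 in each of 4 groups. In every animal Nr3c1, which encodes the glucocorticoid receptor (GR), was floxed. Control mice had these alleles alone (nr3c1 flox/flox), and GR-deficient mice also had Pax8-Cre, a recombinase made in renal tubular epithelium, so the 2 genotypes also differ in the presence of Cre. Cortices were taken from mice left uninjected (healthy) or 24 hours after intramuscular glycerol, which releases myoglobin from muscle and injures the tubules (acute kidney injury, AKI). The uninjected mice were a cohort of their own per the labels, so cohort and injury cannot be told apart. The labels number the 3 samples of a group without saying that each came from its own animal, and p-values therefore measure only the spread between samples, which may be technical.

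Ligands of this superfamily are mostly membrane proteins that act as trimers, and their receptors fall into kinds by what they carry inside the cell. Receptors with a death domain can recruit adaptors that start apoptosis or necroptosis, receptors with TRAF-binding motifs feed the NF-kappaB and kinase pathways, and decoy receptors bind a ligand without passing on a full signal. In kidney injury the superfamily is best known for TNF and its receptors, for FAS, and for the pair of TWEAK and its receptor Fn14 on tubular cells.

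Of the 36 genes, 12 passed the test in at least 1 of 5 comparisons, against 31.8% of all genes. The test was a limma fit over all genes and the threshold an adjusted p of 0.05. The members that moved most with injury in control mice were Tnfrsf12a (Fn14), Tnfrsf1a (the main TNF receptor), Tnfrsf23 (a decoy receptor of the death ligand TRAIL) and Tnfsf10 (TRAIL itself). RefSeq promoter sequence of genome build GRCm38.p6 was matched by symbol for 29 of the 36 members. It was not matched for Cd40, Tnfrsf10b, Tnfrsf11b, Tnfrsf22, Tnfrsf26, Tnfsf4 and Tnfsf9. The 250 bases before the annotated start of these 4 genes are printed because they carry the largest injury differences in control mice, 5′ to 3′ on the strand of the gene, with the motifs searched in capitals. Tnfrsf12a lies at chr17:23677450-23677699 on the minus strand, Tnfrsf1a at chr6:125349473-125349722 on the plus strand, Tnfrsf23 at chr7:143685876-143686125 on the minus strand and Tnfsf10 at chr3:27316827-27317076 on the plus strand.
Tnfrsf12a: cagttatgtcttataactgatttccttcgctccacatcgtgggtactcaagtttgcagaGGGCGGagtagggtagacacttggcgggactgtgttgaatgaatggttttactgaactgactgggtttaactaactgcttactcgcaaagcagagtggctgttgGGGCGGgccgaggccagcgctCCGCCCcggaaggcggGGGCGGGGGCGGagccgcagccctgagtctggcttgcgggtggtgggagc
Tnfrsf1a: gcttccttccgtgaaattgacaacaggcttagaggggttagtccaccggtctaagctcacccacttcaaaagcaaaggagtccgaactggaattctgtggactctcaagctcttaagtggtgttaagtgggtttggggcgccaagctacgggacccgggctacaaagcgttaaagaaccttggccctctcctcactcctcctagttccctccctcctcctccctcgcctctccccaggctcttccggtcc
Tnfrsf23: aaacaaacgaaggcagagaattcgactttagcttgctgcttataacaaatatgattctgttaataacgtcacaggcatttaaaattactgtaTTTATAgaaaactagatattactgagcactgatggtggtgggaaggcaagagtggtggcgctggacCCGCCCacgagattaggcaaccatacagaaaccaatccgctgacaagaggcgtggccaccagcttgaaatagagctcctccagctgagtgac
Tnfsf10: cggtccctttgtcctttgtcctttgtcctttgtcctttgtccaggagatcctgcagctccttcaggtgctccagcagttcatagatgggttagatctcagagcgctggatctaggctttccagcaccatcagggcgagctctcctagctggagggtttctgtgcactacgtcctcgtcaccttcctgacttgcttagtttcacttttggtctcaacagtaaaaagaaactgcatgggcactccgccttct

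A set of 6 motifs was searched on both strands of these windows, and a match is a description of letters only. The GC box (GGGCGG) was found 5 times in the Tnfrsf12a window and 1 time in that of Tnfrsf23, which also held 1 TATA box on the opposite strand. It was present in 32.7% of all 32851 promoter windows of this length. The AP-1 motif (TGANTCA) was in 6.75% of all windows, the kappaB consensus in 3.9%, the interferon-type motif (GAAA and GAAA with any 2 bases between) in 2.98%, the TATA box (TATAAA) in 12.4% and the GR half-site (AGAACA) in 16.1%. Of the 33 windows of the 29 members, 5 held AP-1, 3 kappaB, 4 the interferon-type motif, 6 the TATA box, 14 the GC box and 0 the GR half-site. Of the 11 windows of members that passed, 2 held AP-1, 2 the interferon-type motif, 2 the TATA box and 6 the GC box. The kappaB consensus and the GR half-site were in 0 of these 11. Among members that passed a test, Fas had TGAGTCA from 211 to 205 bases before its start. Tnfsf13b had the same AP-1 letters from 127 to 121 bases, and GAAAGTGAAA from 16 to 7 bases, before 1 of its 2 starts. Tnfrsf1b had the interferon-type motif on the opposite strand from 10 to 1 bases before its start, and Tnfsf18 had a TATA box from 34 to 29 bases. GC boxes were also in the windows of Fas, Ltbr, Tnfrsf11a and Tnfrsf1b. The Tnfrsf1a and Tnfsf10 windows held none of these 6 motifs.

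The checks of the samples were as follows. Nr3c1 lay between 8.82 and 9.65 (log2) on the 6 control arrays and between 7.87 and 8.21 on the 6 GR-deficient arrays, without overlap. It was itself lower after AKI in control mice (-0.69 ± 0.10, adjusted p = 6.56e-05, limma). The difference between the genotypes was therefore -1.38 ± 0.10 in healthy mice and -0.88 ± 0.10 after AKI. The tissue carried its defining markers, with the 6 proximal tubule genes averaging 12.71 to 12.74 on the healthy control arrays, whereas the 5 NK cell markers averaged 5.02 to 5.37 on all arrays. Olfactory receptor genes, taken as not expressed in kidney, served as a measure of dim signal, and 12 of the 36 members had a mean at or below the 95th percentile of 1027 such genes (6.0). Control AKI replicate 1 stood apart: its spread over genes was the narrowest (SD 1.88, others 1.96 to 2.06), and it held the highest of the 12 values for 27.7% of all genes and 45.1% of genes with a mean under 6. Among the 24 members that passed in no comparison it was the highest array for 15. GR-deficient healthy replicate 1 stood apart less clearly (SD 1.96, highest for 12.5% of all genes), and in the fit with array weights both had the lowest weights (0.182 and 0.296).

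The first comparison asked what glycerol injury changed in control mice. Tnfrsf12a, Tnfrsf23 and Tnfrsf1a had the largest increases and Tnfsf10 the largest decrease. Of the 36 members, 8 rose and 3 fell (11 in all, or 30.6%), beside 28.7% of all genes that passed, 13.6% higher and 15.1% lower. The share of members is thus near that of all genes. The median difference over the members was 0.03 on the log2 scale, against 0.00 over all genes. In 12 of 36 members the 3 AKI arrays did not overlap the 3 healthy ones, beside 39.6% of all genes, 9 of them higher (19.3% of all genes) and 3 lower (20.4%).

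**Figure D1:**
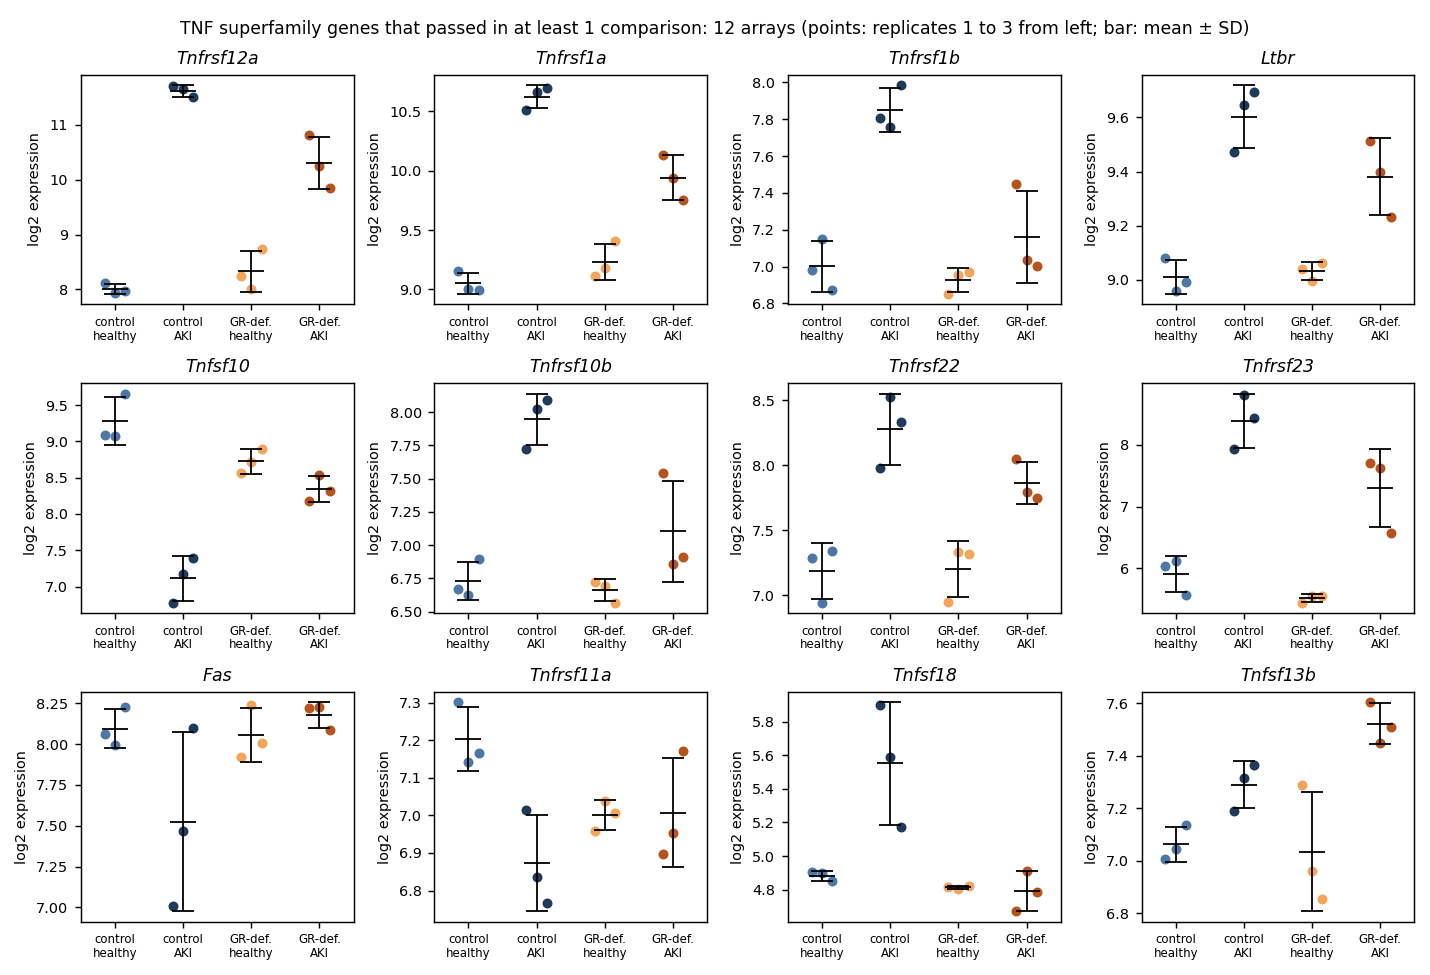
Log2 expression (vertical axes, each with its own range) of the 12 superfamily genes that passed in at least 1 comparison, by group, with 1 point for each array and the mean ± SD of 3 arrays in black. Tnfrsf12a lay between 11.50 and 11.71 on the control AKI arrays and between 9.86 and 10.82 on the GR-deficient AKI arrays, and Tnfsf10 shows the opposite order.

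Among the receptors that bind TRAF adaptors, Tnfrsf12a had the largest rise. It encodes Fn14, the receptor of TWEAK, an inducible protein of injured epithelium. Its log2 values were 8.12, 7.94 and 7.97 on the healthy control arrays and 11.71, 11.65 and 11.50 on the control AKI arrays. All 3 injured samples stood far above the healthy ones, a difference of 3.61 ± 0.21 (SE) or 12.2-fold (adjusted p = 3.26e-08, limma, n = 3 per group).

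Both TNF receptors rose with it. Tnfrsf1a encodes TNFR1, which carries a death domain and is made by most cells. It read 9.16, 9.0 and 9.0 in healthy control mice and 10.51, 10.67 and 10.70 in AKI. The groups were wide apart, by 1.57 ± 0.12 or 2.98-fold (adjusted p = 2.46e-07, limma). Tnfrsf1b, the gene of TNFR2, which has no death domain and is typical of leukocytes and endothelium, read 6.98, 7.15 and 6.87 and then 7.81, 7.76 and 7.99. It rose by 0.85 ± 0.13, or 1.8-fold (adjusted p = 0.000132, limma), again with no overlap. Ltbr, the lymphotoxin beta receptor, which drives the alternative NF-kappaB pathway, read 9.08, 8.96 and 8.99 and then 9.47, 9.65 and 9.69. That rise of 0.59 ± 0.10 was smaller but also clear of the healthy arrays (adjusted p = 0.000469, limma).

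The ligands of these receptors did not pass. Tnf, the founding cytokine, read 5.85, 5.75 and 5.43 in healthy control mice and 6.0, 5.59 and 5.52 in AKI, so that the groups overlapped throughout. Its difference was 0.03 with a 95% interval from -0.27 to 0.32 (adjusted p = 0.94, limma). Lta, the gene of lymphotoxin alpha, read 5.53, 5.72 and 5.24 against 5.87, 5.32 and 5.13, a difference of -0.05 (interval -0.42 to 0.31). Both genes were at or below the dim signal of the olfactory genes, so their intervals do not limit a change in the transcript, and in Tnf and Lta the highest AKI value came from replicate 1. Ltb, whose product joins lymphotoxin alpha in the ligand of LTBR, read 6.54, 6.68 and 6.67 against 6.64, 6.57 and 6.59 (difference -0.03, interval -0.25 to 0.19). LIGHT, the other ligand of LTBR, is the product of Tnfsf14, which read 5.99, 6.39 and 6.14 against 6.74, 5.98 and 6.17 (difference 0.12, interval -0.22 to 0.47). In all 4 ligands the groups overlapped.

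The TRAIL ligand fell and its death receptor rose. Tnfsf10 encodes TRAIL, a ligand that can trigger apoptosis. It read 9.09, 9.08 and 9.66 in healthy control mice and 6.78, 7.17 and 7.40 in AKI. It fell by 2.16 on the log2 scale (SE 0.18, 4.47-fold, adjusted p = 5.03e-07, limma), and no injured sample came near a healthy one. Tnfrsf10b, the gene of the death receptor of TRAIL in mice, read 6.67, 6.62 and 6.89 and rose to 7.72, 8.02 and 8.09, by 1.21 ± 0.16 or 2.32-fold (adjusted p = 4.48e-05, limma).

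The membrane decoy receptors of TRAIL in mice, Tnfrsf22 and Tnfrsf23, rose too. Tnfrsf23 read 6.04, 6.12 and 5.57 in healthy control mice and 7.93, 8.81 and 8.43 in AKI, a rise of 2.48 ± 0.27 (adjusted p = 5.71e-06, limma). Its mean over healthy arrays (5.91 in control and 5.52 in GR-deficient mice) was under the dim signal of the olfactory genes, so the size of its rise in either genotype is uncertain and no fold is given. Tnfrsf22 read 7.28, 6.94 and 7.34 and then 7.98, 8.52 and 8.33, a rise of 1.09 ± 0.16 or 2.13-fold (adjusted p = 9.7e-05, limma). In both genes every injured sample was above every healthy one. They are close copies of each other, so how far their probe sets read only 1 of them is uncertain. The related orphan gene Tnfrsf26 (difference -0.37 ± 0.17, adjusted p = 0.133, limma) did not pass. Osteoprotegerin, the product of Tnfrsf11b, is a soluble decoy for RANKL and TRAIL. Its gene read 5.62, 5.90 and 5.56 against 6.12, 5.40 and 5.43 (difference -0.05, interval -0.41 to 0.32). Tnfrsf26 and Tnfrsf11b had means under the dim signal, so these values do not limit a change in the transcript.

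Fas, the death receptor of FAS ligand, was uneven. It read 8.06, 7.99 and 8.23 in healthy control mice and 7.01, 7.47 and 8.10 in AKI, so that replicate 3 lay among the healthy arrays and replicate 1 far below. The difference was -0.57 ± 0.20 (adjusted p = 0.0452, limma). Without AKI replicate 1 it was -0.31 (adjusted p = 0.172), and without AKI replicate 3 it was -0.86 (adjusted p = 0.000528). The call was in fact lost in 11 of the 12 fits that left out 1 array, that without AKI replicate 3 being the exception. Fasl, the gene of its ligand, was dim and read 4.71, 4.75 and 5.01 against 5.18, 4.89 and 4.82 (difference 0.14, interval -0.11 to 0.40). Tnfrsf21, which encodes the death receptor DR6, read 11.06, 11.05 and 11.49 in healthy control mice and 10.77, 10.69 and 11.02 in AKI. The AKI arrays were all lower, but the difference of -0.38 ± 0.21 did not pass (adjusted p = 0.227, limma).

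Of the pairs known from bone and lymphoid tissue, the receptor RANK moved slightly. Its gene Tnfrsf11a read 7.30, 7.14 and 7.17 and then 7.01, 6.84 and 6.77, a difference of -0.33 ± 0.11 (adjusted p = 0.0307, limma). The arrays did not overlap, but the call was lost without healthy replicate 1 (adjusted p = 0.131), 2 (0.0523) or 3 (0.0621) or AKI replicate 2 (0.0926) or 3 (0.106). RANKL, its ligand, is the product of Tnfsf11, which read 7.47, 7.71 and 7.58 against 7.93, 7.39 and 7.25 (difference -0.06, interval -0.42 to 0.29). Tnfsf18, which encodes the ligand of the T cell receptor GITR, was dim at 4.90, 4.90 and 4.85 in healthy control mice and read 5.90, 5.59 and 5.17 in AKI. It rose by 0.67 ± 0.15 (adjusted p = 0.00242, limma) with no overlap, and by 0.50 without AKI replicate 1, and the adjusted p was at most 0.0115 in the 12 fits that left out 1 array. The receptor gene Tnfrsf18 read 6.29, 6.44 and 6.38 against 6.55, 6.29 and 6.35 (difference 0.03, interval -0.18 to 0.24).

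The other members did not pass in control mice. Over all 25 of the members that did not pass, differences ran from -0.38 to 0.23 and adjusted p from 0.133 to 0.951. By kind, 1 ligand of 13 rose and 1 fell, 2 of 5 death domain receptors rose and 1 fell, 3 of 14 TRAF-binding receptors rose and 1 fell, and 2 of 4 decoy and orphan receptors rose. Cd40, the receptor of antigen-presenting cells (0.06, interval -0.17 to 0.29), was among the members that did not pass.

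**Figure D2:**
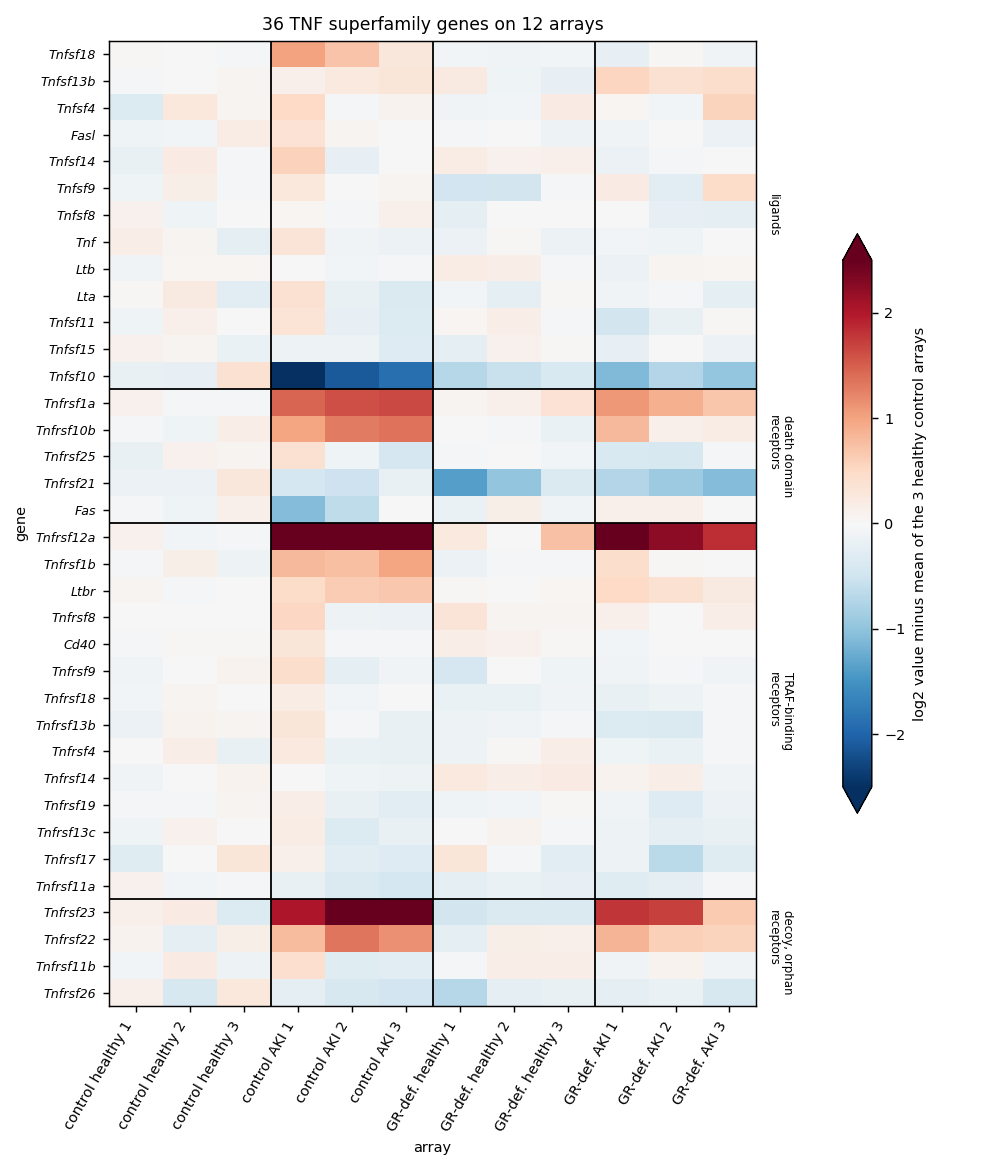
Each cell gives the log2 value of 1 of 36 genes (rows, grouped by kind) on 1 of 12 arrays (columns), minus the mean of that gene on the 3 healthy control arrays. Colour runs from blue (lower) to red (higher) and is capped at 2.5 in either direction. Strong colour is limited to few rows, led by Tnfrsf12a, Tnfrsf23, Tnfrsf1a and Tnfsf10, and the control AKI 1 column is faintly red in many dim rows.

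Downstream genes were counted in control mice beside the 28.7% of all genes that passed, 13.6% higher and 15.1% lower. In a list of TNF signalling genes, 13 of 35 measured genes rose and 2 fell, with a median difference of 0.17 against 0.00 over all genes. The list held adaptors, kinases, NF-kappaB subunits and their inhibitors, ubiquitin regulators, Casp8, Cflar, Adam10 and Adam17. Of its 39 genes, Ripk1, Traf3, Chuk and Nfkb1 had no value here. Bcl3, a nuclear partner of NF-kappaB p50 and p52, rose by 1.66 ± 0.20, and Nfkb2, the precursor of p52, by 0.98 ± 0.10. Ikbkg, the regulatory kinase subunit NEMO, rose by 0.73 ± 0.11 and Rela, the p65 subunit, by 0.92 ± 0.14 (adjusted p from 3.79e-06 to 0.000143 over these 4, limma). Of 19 genes that NF-kappaB is known to induce, 8 rose and 1 fell, with Lcn2, the NGAL gene (5.99 ± 0.55), the neutrophil chemokine Cxcl1 (2.09 ± 0.14) and the cytokine Il6 (2.03 ± 0.25) among the increases. Il6, Eda2r and Cxcl2 had means under the dim signal, and the sizes of their differences are uncertain. The one that fell was Sod2 (-1.03 ± 0.10), a mitochondrial dismutase. Of 9 further genes tied to the superfamily under other symbols, Eda2r, a receptor of ectodysplasin (1.15 ± 0.18), and Pglyrp1, a secreted granule protein that can bind TNFR1 (0.42 ± 0.12), rose and 0 fell.

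Markers of other cells moved with these results in part. The mean of 8 neutrophil genes was 5.13 to 5.39 on the healthy control arrays and 6.18 to 6.42 on the control AKI arrays, with 5 of 8 rising and 2 of 8 above the dim signal. T cell genes (0 of 7 passed, array means 5.88 to 6.01 and then 5.65 to 6.11) and B cell genes (0 of 5, 5.53 to 5.66 and 5.26 to 5.67) stayed low. The 9 monocyte and macrophage genes averaged 7.28 to 7.48 and then 7.40 to 7.66, with Cd68 higher (2.85 ± 0.17) and Csf1r lower (-0.85 ± 0.12). The 6 proximal tubule genes fell without exception, from 12.71 to 12.74 down to 10.85 to 11.16. Of 6 loop and distal nephron genes 4 fell, of 7 endothelial genes 3 rose and 2 fell, and of 6 fibroblast and mural genes 3 rose and 2 fell. The part of these cell types in the change of any superfamily gene was not tested, and in bulk cortex fewer cells of a type and less RNA per cell cannot be told apart.

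The next comparison asked what glycerol changed in GR-deficient mice. Of the 36 members 5 rose and 0 fell (13.9%), beside 4.64% of all genes, 3.29% higher and 1.35% lower. After quantile normalization the split over all genes was 659 higher and 436 lower, against 656 and 270 as deposited. Leaving out 1 array gave 3 (GR-deficient healthy replicate 2 or AKI replicate 1) to 6 members (control AKI replicate 1). Over all genes it gave 277 (GR-deficient AKI replicate 1) to 1448 (control AKI replicate 1), against 926 with all arrays, and 472 and 468 without GR-deficient healthy replicate 2 or AKI replicate 2. The 5 members were Tnfrsf12a, Tnfrsf23, Tnfrsf1a, Tnfrsf22 and Tnfsf13b. The median difference was -0.02 over the members and -0.03 over all genes. In 13 members the groups did not overlap, beside 25.3% of all genes, 8 of them higher (12.8% of all genes) and 5 lower (12.5%).

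Tnfrsf12a again rose most. It read 8.25, 8.0 and 8.73 on the healthy GR-deficient arrays and 10.82, 10.25 and 9.86 in AKI, a rise of 1.98 ± 0.21 or 3.94-fold (adjusted p = 0.000207, limma, n = 3 per group). Every injured sample was above every healthy one, though healthy replicate 3 was nearest. Tnfrsf23 read 5.45, 5.55 and 5.56 and then 7.70, 7.62 and 6.56, a rise of 1.78 ± 0.27 (adjusted p = 0.00199, limma), with AKI replicate 3 the lowest of its group but above all healthy arrays. Tnfrsf1a read 9.12, 9.18 and 9.40 and then 10.13, 9.94 and 9.75, a rise of 0.71 ± 0.12 (1.63-fold, adjusted p = 0.00435, limma).

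Tnfrsf22 read 6.95, 7.34 and 7.32 in the healthy group and 8.05, 7.79 and 7.75 in AKI (0.66 ± 0.16, adjusted p = 0.0301, limma). It did not pass without healthy replicate 1 (0.53, adjusted p = 0.113) or 2 (0.0568), nor without AKI replicate 1 (0.172) or 2 (0.0713). Tnfsf13b encodes BAFF, the survival factor of B cells, and was the one member that passed in GR-deficient mice but not in control mice. It read 7.29, 6.96 and 6.85 and then 7.61, 7.45 and 7.51, a rise of 0.49 ± 0.12 (adjusted p = 0.0291, limma). In control mice it read 7.01, 7.05 and 7.14 and then 7.19, 7.32 and 7.36 (0.23 ± 0.12, adjusted p = 0.184), and the AKI arrays were the higher ones there too. The responses of this gene differed by 0.26 ± 0.17 between the genotypes (adjusted p = 0.382).

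The BAFF call was lost without any 1 of 5 arrays, namely healthy replicate 2 (0.45, adjusted p = 0.104) or 3 (0.40, 0.0877) and AKI replicate 1 (0.157), 2 (0.0655) or 3 (0.0669). Without healthy replicate 1 the rise of Tnfsf13b was 0.61. Its receptors did not pass. Tnfrsf13c, the BAFF receptor of B cells, read 7.20, 7.28 and 7.17 in the healthy group and 7.06, 6.96 and 7.01 in AKI (-0.21, interval -0.48 to 0.06). Tnfrsf13b, which encodes TACI, read 6.32, 6.35 and 6.41 against 6.11, 6.08 and 6.40 (-0.16, interval -0.45 to 0.12). Tnfrsf17, the plasma cell receptor BCMA, had a mean under the dim signal of the olfactory genes. It read 5.99, 5.64 and 5.41 against 5.55, 5.01 and 5.37 (-0.37, interval -0.78 to 0.04). For Tnfrsf13c the groups did not overlap, and for the other 2 they did.

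Members that had moved in control mice read as follows where GR was lost. Tnfsf10 was 8.56, 8.71 and 8.90 without injury and 8.18, 8.54 and 8.32 in AKI (-0.38 ± 0.18, adjusted p = 0.277, limma). Tnfrsf10b read 6.73, 6.69 and 6.57 and then 7.54, 6.86 and 6.91 (0.44 ± 0.16, adjusted p = 0.157), with replicate 1 well above the other 2. Tnfrsf1b showed the same order, with 6.85, 6.96 and 6.97 before and 7.45, 7.03 and 7.0 after (0.24 ± 0.13, adjusted p = 0.363). Tnfsf10, Tnfrsf10b and Tnfrsf1b did not pass, but their AKI arrays did not overlap the healthy ones, which held for 25.3% of all genes. In the GR-deficient AKI group replicate 1 was the highest array for 7 of the 8 members that rose in control mice. The like share over all genes was not counted, so this is a description of these members only. Replicate 1 also had the lowest mean of the 6 proximal tubule genes in that group (12.08, against 12.22 and 12.28). Any link between these values was not tested.

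Ltbr read 9.04, 9.0 and 9.06 and then 9.51, 9.40 and 9.23, without overlap (0.35 ± 0.10, adjusted p = 0.075). It passed in the fit without control AKI replicate 1 (adjusted p = 0.0384), where its difference stayed 0.35. Fas read 7.92, 8.24 and 8.0 against 8.22, 8.22 and 8.09 (0.12, interval -0.30 to 0.55), and Fas was even across these arrays. Tnfsf18 stayed dim, at 4.82, 4.80 and 4.82 against 4.67, 4.91 and 4.79 (-0.02, interval -0.33 to 0.29).

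The comparison of the responses asked whether injury changed a gene by the same amount in both genotypes, and was tested as an interaction within the fit. The members that passed in control mice were picked out by that response. The share of it seen in GR-deficient mice, a ratio of log2 differences, is therefore given as a description only. The interaction passed for 6 of 36 members (16.7%), 5 lower and 1 higher, beside 11.5% of all genes, 4.06% lower and 7.39% higher. After quantile normalization the split over all genes was 1377 higher and 1219 lower, against 1473 and 810 as deposited, while the member counts were 1 and 5 in both. A comparison of AKI arrays between genotypes and the response of control mice share the control AKI arrays, so those values are given side by side and not as support for each other.

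**Figure D3:**
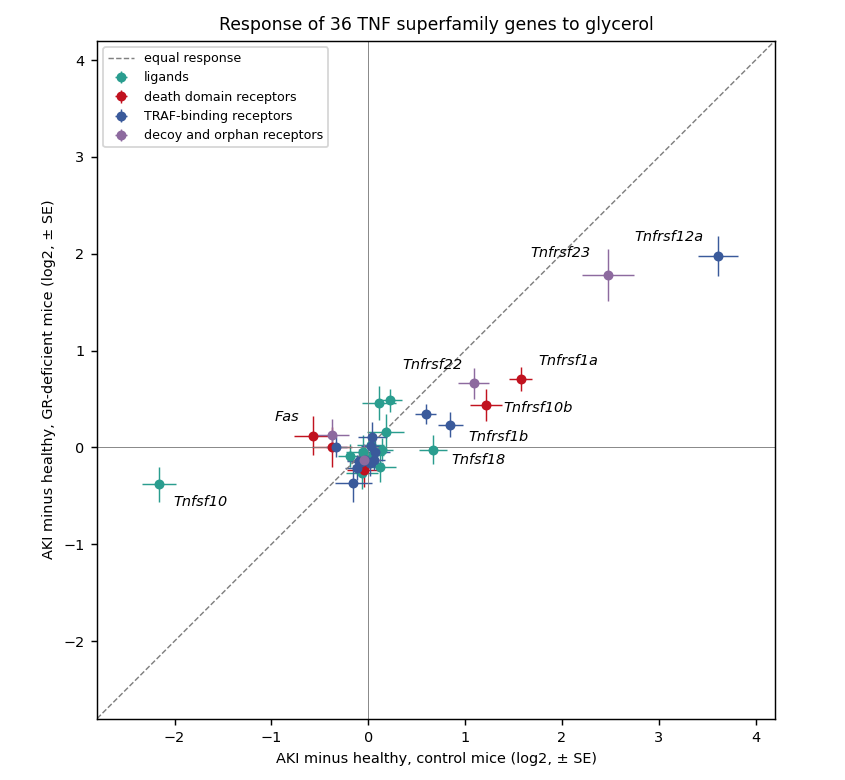
AKI minus healthy in control mice (horizontal axis) against the same difference in GR-deficient mice (vertical axis) for 36 genes on the log2 scale, with bars of ± 1 SE and a dashed line of equal response. Tnfrsf12a lies at 3.61 and 1.98 and Tnfsf10 at -2.16 and -0.38, both nearer to 0 on the vertical axis than the line, and most members cluster around 0 in both genotypes.

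For 3 genes the call of the interaction held in each alternative fit. The response of Tnfsf10 was higher, that is less negative, by 1.78 ± 0.25 in GR-deficient mice (adjusted p = 0.000519, limma). That of Tnfrsf12a was lower by 1.63, written as -1.63 ± 0.30 (adjusted p = 0.00248). On the log2 scale the rise of this receptor was 54.8% of that in control mice (3.94-fold against 12.2-fold). The response of Tnfrsf1a was lower by 0.87 (-0.87 ± 0.17, adjusted p = 0.00404). On the log2 scale it was 44.9% of the control response (1.63-fold against 2.98-fold).

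The other 3 calls were close to the threshold. They were Tnfrsf10b (-0.77 ± 0.23, adjusted p = 0.0438), Tnfrsf1b (-0.61 ± 0.18, adjusted p = 0.0423) and Tnfsf18 (-0.69 ± 0.21, adjusted p = 0.042). Over all alternatives Tnfrsf10b and Tnfrsf1b each kept the call in 9 of 19 fits, and Tnfsf18 in 5 of 18. The account of these 3 genes below covers the 12 fits that left out 1 array. Among them Tnfrsf10b kept its call only without healthy control replicate 3, control AKI replicate 1 or GR-deficient AKI replicate 1. Its adjusted p ran from 0.00403 to 0.12. Tnfrsf1b kept it only without healthy control replicate 2, control AKI replicate 1 or GR-deficient AKI replicate 1 (0.0104 to 0.115). Tnfsf18 kept it only without control AKI replicate 3 (0.00232 to 0.101). Tnfsf18 was dim on every array, so the size of its difference is uncertain. For Tnfrsf23 (-0.70 ± 0.38), Tnfrsf22 (-0.43 ± 0.23) and Ltbr (-0.24 ± 0.15) the interaction did not pass in the main fit. Their responses on the log2 scale were 71.7%, 60.7% and 58.8% of those in control mice. The share for Tnfrsf23 is uncertain, because its healthy arrays were dim. Without both arrays that stood apart, the interaction passed for Tnfrsf22 (-0.70, adjusted p = 0.0299, limma). With array weights it passed for Tnfrsf22 (-0.69, adjusted p = 0.00706), Tnfrsf23 (-0.95, 0.0272) and Fas (0.62, 0.0205). The interaction for Fas (0.69 ± 0.28, adjusted p = 0.143) ranged from 0.43 without control AKI replicate 1 to 0.98 without control AKI replicate 3 (adjusted p = 0.00478), and passed only in the latter of the 12 fits that left out 1 array.

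GR deficiency was next compared with control within each condition. In healthy mice 0 of 36 members passed in limma, beside 0.145% of all genes, and 3 had an unadjusted p under 0.05. Over all genes 29 passed, a count that moved to 10, 15 and 15 without healthy control replicate 1, 2 or 3, and to 73 and 45 without control AKI replicate 1 or 3. Leaving out healthy GR-deficient replicate 1, 2 or 3 gave 11, 18 and 115 genes, and leaving out GR-deficient AKI replicate 1 gave 17. The 3 members were Tnfrsf21, Tnfsf10 and Tnfrsf26. Tnfrsf21 read 11.06, 11.05 and 11.49 on the control arrays and 9.82, 10.21 and 10.84 on the GR-deficient ones, a difference of -0.91 ± 0.21 (adjusted p = 0.125, limma). All GR-deficient arrays were below all control arrays, but they were spread widely, and without GR-deficient replicate 3 the gene passed at -1.19 (adjusted p = 0.0173). Over the 12 fits that left out 1 array the difference ran from -1.19 to -0.68, the latter without GR-deficient replicate 1, and the adjusted p reached 0.52. Tnfsf10 was also lower on every GR-deficient array, by 0.55 in the mean (-0.55 ± 0.18, adjusted p = 0.276). In 9 members the arrays of the genotypes did not overlap, beside 18.6% of all genes, 3 of them higher (8.08% of all genes) and 6 lower (10.6%). For Tnfrsf12a the healthy difference was 0.32 (interval -0.13 to 0.77) and for Tnfrsf1a 0.18 (interval -0.08 to 0.44).

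After AKI, 8 members passed (22.2%), 6 lower and 2 higher in GR-deficient mice, beside 17.4% of all genes, 7.34% lower and 10% higher. After quantile normalization the split over all genes was 2012 higher and 1897 lower, against 1997 and 1463 as deposited. For the members it was 2 higher and 8 lower. The arrays did not overlap in 9 members, beside 32.8% of all genes, 2 of them higher (17.5% of all genes) and 7 lower (15.3%). Tnfrsf12a was lower by 1.32 (-1.32 ± 0.21, 2.49-fold, adjusted p = 0.000509, limma), Tnfrsf10b by 0.84 (-0.84 ± 0.16, adjusted p = 0.00222) and Tnfrsf1a by 0.69 (-0.69 ± 0.12, adjusted p = 0.001). Tnfrsf1b (-0.69 ± 0.13, adjusted p = 0.00169) and Tnfsf18 (-0.76 ± 0.15, adjusted p = 0.00192) were lower too. Tnfsf18 stayed under the dim signal of the olfactory genes on every array (highest 5.90 against 6.0). The size of its difference is therefore uncertain. In each of these 5 genes all GR-deficient AKI arrays lay below all control AKI arrays.

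Tnfrsf23 was also lower (-1.09 ± 0.27, adjusted p = 0.0102), though not without control AKI replicate 2 (-0.88, adjusted p = 0.0576), and was -0.73 without GR-deficient AKI replicate 3. Tnfsf10 was higher by 1.23 ± 0.18 (2.34-fold, adjusted p = 0.000256), with no overlap. Fas was higher by 0.65 ± 0.20 (adjusted p = 0.035), with overlapping groups, and did not pass without control AKI replicate 1 (0.40, adjusted p = 0.125) or 2 (0.102) or without GR-deficient AKI replicate 1 (0.0961), 2 (0.102) or 3 (0.067). Tnfrsf21 differed by -0.53 ± 0.21 (adjusted p = 0.102), with all GR-deficient arrays lower. It passed in the fits without GR-deficient healthy replicate 1 (adjusted p = 0.048) or 3 (0.0315), with the same difference, and after quantile normalization (-0.69, adjusted p = 0.0147). Tnfrsf22 (-0.41 ± 0.16) passed without control AKI replicate 1 (-0.56, adjusted p = 0.0219).

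**Figure D4:**
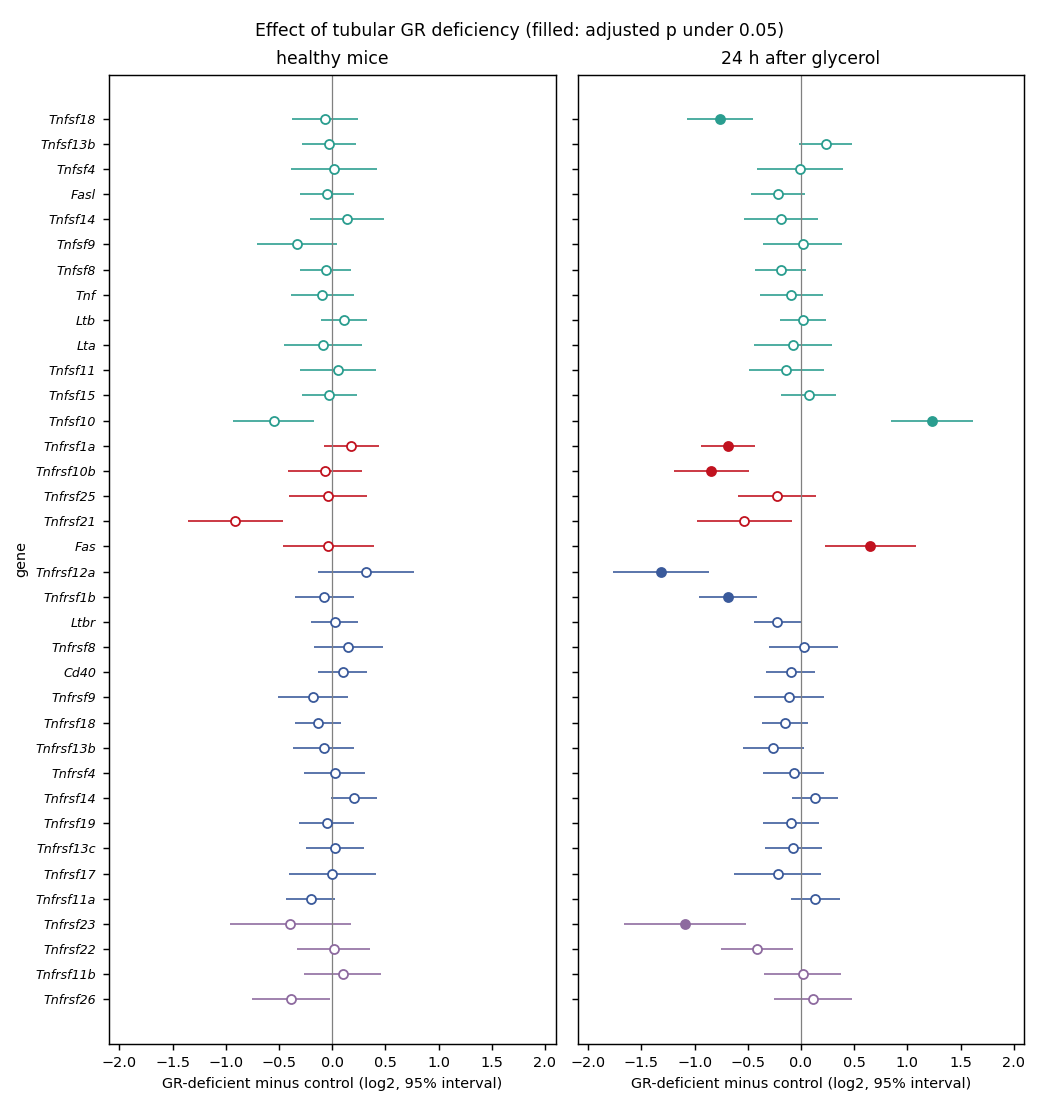
GR-deficient minus control on the log2 scale (horizontal axes, points with 95% intervals from the limma fit) for 36 genes in healthy mice (left) and 24 hours after glycerol (right), coloured by kind, with filled points where the adjusted p was under 0.05. No point is filled on the left, and 8 are filled on the right, from -1.32 for Tnfrsf12a to 1.23 for Tnfsf10.

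Downstream genes were counted in the same comparison, in which 17.4% of all genes passed, 7.34% lower and 10% higher. Of the 35 TNF signalling genes 0 were higher and 7 lower in GR-deficient than in control mice after AKI, with a median of -0.15 against -0.04 over all genes. In number, 7 of 35 is near the share of all genes that passed. Nfkb2 (-0.57 ± 0.10), Rela (-0.72 ± 0.14), Ikbkg (-0.57 ± 0.11) and Tnfaip3, the A20 brake on NF-kappaB (-0.39 ± 0.10), were among the 7 lower genes. Of the 19 NF-kappaB response genes 5 were lower and 2 higher. Cxcl1 (-1.90 ± 0.14), the related chemokine Cxcl2 (-0.99 ± 0.20) and Il6 (-1.35 ± 0.25) were lower, and Sod2 (0.61 ± 0.10) and the adhesion molecule Vcam1 (0.47 ± 0.12) were higher. In the comparison of AKI with healthy GR-deficient mice 4.64% of all genes passed, 3.29% higher and 1.35% lower. There AKI raised 2 of the 35 signalling genes, Bcl3 (1.32 ± 0.20) and Nfkbib (0.51 ± 0.13), and lowered 0. In those mice it raised 2 of the 19 response genes, Lcn2 (3.70 ± 0.55) and Icam1 (0.53 ± 0.14), and lowered Sod2 (-0.36 ± 0.10). Lcn2 was uneven in healthy GR-deficient mice, at 9.94 in replicate 1 against 6.99 and 7.18. Eda2r was lower in GR-deficient mice with AKI (-1.09 ± 0.18).

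Neutrophil genes differed alongside. Their mean was 5.41 to 5.73 on the GR-deficient AKI arrays, against 6.18 to 6.42 on the control AKI arrays, with 5 of 8 lower. The 6 proximal tubule genes were all higher in GR-deficient AKI, at 12.08 to 12.28 against 10.85 to 11.16. Of 7 T cell genes 0 passed in this comparison, of 5 B cell genes 0, and of 9 monocyte and macrophage genes 1 was higher and 1 lower. Of the loop and distal nephron genes 4 of 6 were higher, of the endothelial genes 2 of 7 were higher and 2 lower, and of the fibroblast and mural genes 1 of 6 was lower. The part of these cells and of the extent of injury in the superfamily differences was not tested.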

How the data were processed

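The authors deposited 1 table of log2 expression values. RMA, affy and oligo are the tools that the submitters' processing notes name, and their versions and the genome build were not given in the sources used here. The log base follows from array maxima between 14.73 and 14.9. No further normalization was applied. Of 35556 probe sets, 21789 had 1 gene symbol, 1621 several and 12146 none in the platform annotation. Per gene the probe set with the highest mean was kept (19938 genes). All 36 members matched RefSeq by Entrez ID.

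The tests used limma 3.58.1 (lmFit and eBayes, R 4.3.3) on 4 group means, with 8 residual and 6.26 prior degrees of freedom, two-sided, Benjamini-Hochberg adjusted over all genes within each of 5 contrasts. Errors are SEs of the fit, and intervals are 95% intervals. The fit was tested on simulated data. Members, gene lists, kinds and motifs were chosen with earlier results of these data known. Values on every array are given for members that passed and for known partners in the comparison concerned, and up to 4 genes with small p per list. Cd40, Tnfrsf26, Tnfrsf21 and Vcam1 were named after their values were seen. Alternatives were quantile normalization, a filter (mean of at least 6), averaged probe sets, a robust trended prior, array weights, a replicate block and leaving out arrays. The number of arrays limits precision.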

Additional observations from a re-analysis of the deposited data

Results flagged for a closer look

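The response to glycerol differed between the genotypes, by the interaction term of the limma fit, for 6 members. The difference (GR-deficient response minus control response, log2) was 1.78 for Tnfsf10 (adjusted p = 0.000519), -1.63 for Tnfrsf12a (0.00248) and -0.87 for Tnfrsf1a (0.00404). It was -0.77 for Tnfrsf10b (0.0438), -0.61 for Tnfrsf1b (0.0423) and -0.69 for Tnfsf18 (0.042), and for these 3 the call was lost in most fits that left out 1 array. Tnfsf18 was dim on every array, so the size of its difference is uncertain. In Tnfsf10 the 3 control AKI arrays lay below the other 9, and in the other 5 genes they lay above the other 9.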

How the results depend on the processing

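Of 30 called values (a member in a comparison), 21 kept their call in every one of up to 19 alternative fits, 9 lost it in at least 1, and 0 turned direction. In the fit with array weights control AKI replicates 1, 2 and 3 had weights of 0.182, 5.088 and 0.621. The control AKI group thus rested mainly on replicate 2 there, which limits what the counts of that fit can show. Counts over all genes rose from 5715 to 9648 for AKI in control mice and from 926 to 3196 for AKI in GR-deficient mice. They rose from 29 to 301 for GR deficiency in healthy mice, from 3460 to 7000 for GR deficiency in AKI and from 2283 to 4905 for the interaction, and members from 0 to 1 in healthy mice (Tnfrsf21) and from 8 to 13 in AKI. In healthy mice the filter gave 62 genes and the robust trended prior 71. Of 18 same-numbered pairs of arrays, 3 had a correlation of deviations from group means above 0.1 (range -0.41 to 0.252). Of 12 arrays, 3 correlated best with an array of their own number. With 3 arrays per group this check cannot exclude that replicate numbers pair the samples. With the replicate block, members called went from 5 to 3 for AKI in GR-deficient mice and from 6 to 3 for the interaction. Leaving out 1 array gave 3 to 6 members for AKI in GR-deficient mice, 0 to 1 for GR deficiency in healthy mice and 3 to 5 for the interaction, and over all genes 277 to 1448 for AKI in GR-deficient mice and 10 to 115 for GR deficiency in healthy mice. The lowest counts for AKI in GR-deficient mice came without GR-deficient healthy replicate 2 or AKI replicate 1 (members) and without that AKI replicate 1 (all genes), and the highest over all genes without control AKI replicate 1. For GR deficiency in healthy mice the highest counts came without GR-deficient healthy replicate 3 and the lowest over all genes without healthy control replicate 1. The cause of these shifts was not tested. Values of dim members such as Tnf, Lta, Fasl and Tnfsf18 are limited by signal over background.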

Other observations

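Members that lie next to each other in the RefSeq gene order were not all called alike. Tnfrsf26, Tnfrsf22 and Tnfrsf23 are consecutive protein-coding genes on chromosome 7, and after AKI in control mice Tnfrsf22 (1.09 ± 0.16) and Tnfrsf23 (2.48 ± 0.27) rose while Tnfrsf26 read -0.37 ± 0.17. Tnfsf18 lies between Tnfsf4 and Fasl on chromosome 1, and it rose by 0.67 ± 0.15 where Tnfsf4 (0.18 ± 0.19) and Fasl (0.14 ± 0.12) did not pass. On chromosome 4, Tnfrsf1b (0.85 ± 0.13) rose and its neighbour Tnfrsf8, the gene of CD30 (0.07 ± 0.15), did not pass. Ltb, Tnf and Lta are consecutive on chromosome 17, and none of them passed in any of the 5 comparisons. Of these genes, Tnfrsf26, Tnfsf18, Tnfsf4, Fasl, Tnf and Lta had means at or below the dim signal of the olfactory genes. Their values therefore do not limit a change in the transcript. Whether these neighbours differ from each other was not tested.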
